A study of Homo sapiens with 2 samples.

Results

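The genes described here are the 7 members of the ABCA family of lipid transporters that appear in a table of genes changed by ezetimibe in SNU-449 cells. They were chosen by a single rule, that the symbol ABCA with a number stands among the changed genes of any pathway in the authors' deposited table. The rule took 7 genes of the 2238 that the table lists, out of 12 ABCA genes in the human family: ABCA2, ABCA5, ABCA6, ABCA7, ABCA8, ABCA10 and ABCA12. Because being listed as changed is what selected them, their number and direction are descriptions with no test.

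SNU-449 is a human hepatocellular carcinoma line, kept here in medium with 10% serum. Total RNA was sequenced from 1 control culture and from 1 culture given ezetimibe, the drug that blocks intestinal and hepatic sterol uptake through NPC1L1, for 24 h. The sources used here give neither the dose nor the solvent, and the line is the only model. With 1 library per group no difference has a replicate check. The table gives each changed gene a direction under KEGG pathways, and neither a level, a fold change nor a p for a gene, so levels per sample cannot be shown and depth is unknown. The name of the comparison puts ezetimibe before control, so genes listed as up are taken to be higher with the drug.

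ABCA proteins are full-length ATP-binding cassette transporters, single chains with a pair of membrane domains and a pair of ATP-binding domains, which use ATP to move phospholipids, sterols and sphingolipids across or out of membranes. In liver the best known member is ABCA1, which loads cholesterol and phospholipid onto apolipoprotein A-I to form nascent high-density lipoprotein, and whose gene is switched on by the sterol-sensing nuclear receptor LXR. Other members serve lysosomes, phagocytes, lung surfactant, the retina and the skin barrier.

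All 7 listed ABCA genes were listed as down after ezetimibe and none as up. Over the whole table, 2238 of 8877 background pathway genes were listed as changed (25.2%), and 1510 of the 8877 as down (17.0%). The rule used this same contrast, so the members' count carries no weight against those shares. Among listed genes as a whole, 67.5% were down, which is the share beside which the 7 of 7 stands. The other 5 family genes were not listed. They are ABCA1, the retinal transporter ABCA4, the surfactant lipid transporter ABCA3, ABCA9 and the very long ABCA13. A gene absent from the lists may have missed the authors' threshold, may not be expressed, or may lie outside the background. The identities of the background genes are not in the table, so these cases cannot be told apart.

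To show how differently the members' genes begin, the stretches just before the start of 4 of them are given, 5′ to 3′ on the gene's strand, from the RefSeq promoters of GRCh38.p14. Each ends where the first GENCODE exon begins or at the RefSeq start, and capitals mark CG dinucleotides, the sites of DNA methylation. They lie at chr17:69327245-69327383 (ABCA5, minus strand), chr17:69141896-69142145 (ABCA6, minus), chr19:1039857-1040100 (ABCA7, plus) and chr9:137028923-137029172 (ABCA2, minus).
ABCA5: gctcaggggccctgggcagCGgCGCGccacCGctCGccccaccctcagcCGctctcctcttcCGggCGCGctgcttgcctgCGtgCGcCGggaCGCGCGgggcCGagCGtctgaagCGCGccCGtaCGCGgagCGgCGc
ABCA6: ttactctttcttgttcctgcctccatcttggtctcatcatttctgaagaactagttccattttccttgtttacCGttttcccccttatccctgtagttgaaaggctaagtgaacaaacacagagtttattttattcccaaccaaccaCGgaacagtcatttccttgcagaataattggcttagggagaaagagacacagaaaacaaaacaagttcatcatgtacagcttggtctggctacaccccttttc
ABCA7: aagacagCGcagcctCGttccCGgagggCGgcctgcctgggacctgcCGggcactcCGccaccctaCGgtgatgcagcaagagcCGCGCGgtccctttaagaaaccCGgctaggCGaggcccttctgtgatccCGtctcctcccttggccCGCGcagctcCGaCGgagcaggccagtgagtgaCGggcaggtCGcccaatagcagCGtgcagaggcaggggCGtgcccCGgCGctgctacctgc
ABCA2: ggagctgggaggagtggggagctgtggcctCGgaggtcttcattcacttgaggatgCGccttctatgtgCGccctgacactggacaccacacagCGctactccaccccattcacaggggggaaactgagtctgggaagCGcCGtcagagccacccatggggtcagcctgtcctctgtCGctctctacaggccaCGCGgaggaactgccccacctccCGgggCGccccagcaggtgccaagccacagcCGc
The 139 bases of ABCA5 hold 24 CG dinucleotides, the 244 of ABCA7 hold 23, and the 250 of ABCA2 hold 12. The 250 bases of ABCA6 hold 2. Of the stretches not printed, the 250 bases of ABCA10 hold 2 and the 250 of ABCA12 hold 1. ABCA2, ABCA10 and ABCA12 have 2 RefSeq starts each, of which 1 was used. ABCA5 and ABCA6 are neighbours in the same gene cluster and were both listed as down.

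Over the full 300 bases around the start, promoter GC content ran from 25.0% for ABCA10 to 76.3% for ABCA5 among the 6 listed members with a RefSeq promoter, and the median of all 35116 RefSeq promoters was 58.7%. ABCA6 had 41.7%, ABCA12 48.7%, ABCA2 64.3% and ABCA7 70.0%. Thus 3 members lay above that median and 3 below. ABCA10 was near the lowest of all, with 0.111% of promoters having a lower GC content, and its upstream stretch overlaps an exon of ABCA5.

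Short motifs were searched on both strands in these 6 promoters, each as exact letters, with any overlapping matches counted. The Sp1-type GC box GGGCGG was in those of ABCA5 and ABCA7, against 45.0% of all promoters. The CCAAT box, searched as CCAAT, was in those of ABCA6 and ABCA7 (34.6% of all). The TATA box, as TATAAA, was in that of ABCA10 (11.5% of all). None of the 6 held the nuclear receptor half-site AGGTCA (13.8% of all promoters), the core CACCCCAC of the sterol regulatory element (2.79%), or the E-box CACGTG found in lysosomal gene promoters (7.26%). A match or its absence describes these letters in this window only.

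Of the 7 genes, 4 lie side by side on chromosome 17. ABCA8, ABCA6, ABCA10 and ABCA5 are transcribed from the minus strand within 460 kb (chromosome 17, 68867292 to 69327244, GENCODE release 29 on GRCh38), with ABCA9, which was not listed, between ABCA8 and ABCA6. No other protein-coding gene lies within the cluster. ABCA8 (ENSG00000141338; 68867292 to 68955392) is a transporter linked to cholesterol efflux and high-density lipoprotein, and ABCA6 (ENSG00000154262; 69078702 to 69141888) and ABCA10 (ENSG00000154263; 69147214 to 69244846) are less studied members whose expression has been tied to cellular cholesterol. ABCA5 (ENSG00000154265; 69244311 to 69327244) encodes a transporter of late endosomes and lysosomes. The authors' deposited table lists all 4 as down, under ABC transporters and no other pathway.

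**Figure D1:**
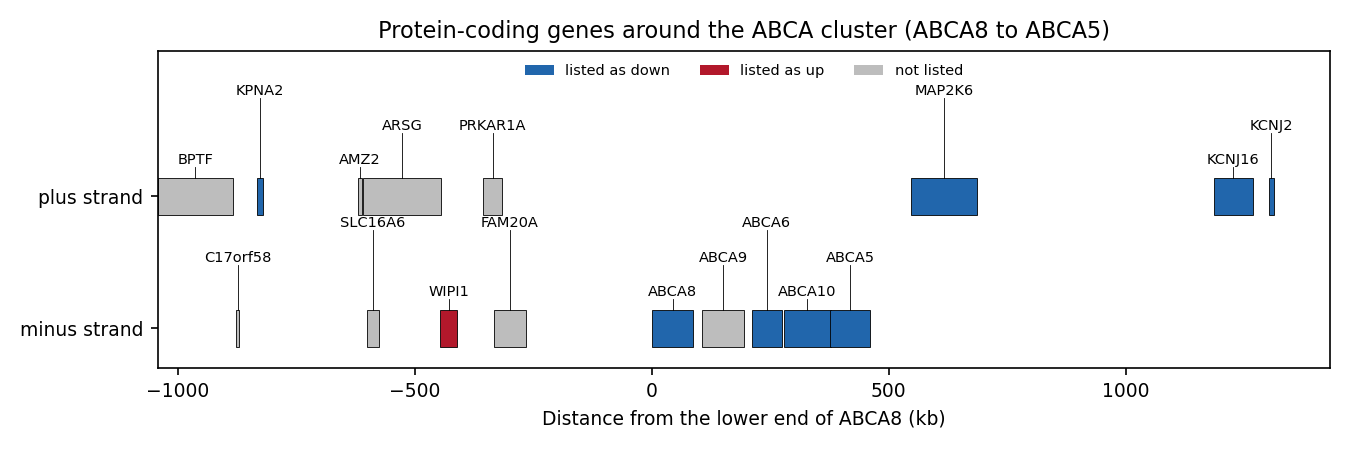
Protein-coding genes around the chromosome 17 cluster, by strand, against the distance in kb from the lower end of ABCA8; colours give the direction in the authors' table, and grey genes were not listed. ABCA8, ABCA6, ABCA10 and ABCA5 are all down, ABCA9 is not listed, and WIPI1 is the only gene in view listed as up.

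Within the cluster, the calls of ABCA5 and ABCA10 may not be fully separate measurements. The gene models of ABCA5 and ABCA10 overlap by 536 bases on the same strand, and the order of transcription puts the start of ABCA10 inside the end of ABCA5. Of the 50-base words of the longest coding transcript, 6.78% for ABCA10 also occur in a transcript of ABCA5, of the pseudogene ABCA11P or of ZNF721. For ABCA5 3.29% are shared, all with ABCA10, and for ABCA8 1.11%, all with ABCA9. ABCA6 shared none, nor did ABCA2, ABCA7 or ABCA12. Antisense genes overlap ABCA2, ABCA8, ABCA10 and ABCA12 on the opposite strand. The sources used here do not give whether counting used strand; if it did not, reads from such partners cannot be told apart.

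The listed genes next to the members did not all go the same way. Within 1000 kb of a member, 15 other genes were listed, 9 of them down and 6 up (60.0% down, beside 67.5% over all listed genes). Around the chromosome 17 cluster, 4 of 5 were down. They are the stress kinase kinase MAP2K6, 87.5 kb beyond ABCA5, the potassium channels KCNJ16 and KCNJ2, and the nuclear import factor KPNA2. The autophagy protein gene WIPI1, 410 kb from ABCA8, was up. Around ABCA7, the adenomatous polyposis coli homologue APC2 was down and MED16, a Mediator subunit, SHC2 and REXO1 were up. Around ABCA2, PNPLA7, a lysophospholipase, and the nucleotidase ENTPD8 were down, and UAP1L1 and GPSM1 were up. BARD1, the partner of BRCA1, and the fibronectin gene FN1, both near ABCA12, were down. ABCA7 was therefore listed as down in a neighbourhood where 3 of the 4 other listed genes were up.

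The 3 members outside the cluster have the better known roles. ABCA2 (ENSG00000107331; chromosome 9, 137007227 to 137028922, minus strand) is an endolysosomal transporter abundant in myelin-forming cells and linked to sterol and sphingolipid traffic. ABCA7 (ENSG00000064687; chromosome 19, 1040101 to 1065572, plus strand) exports phospholipid, takes part in phagocytosis and is a risk gene for Alzheimer disease. ABCA12 (ENSG00000144452; chromosome 2, 214931542 to 215138428, minus strand) loads glucosylceramide into the lamellar granules of keratinocytes, and its loss causes harlequin ichthyosis. The authors' deposited table lists all 3 as down.

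ABCA2 was the only member under a second pathway. The authors' deposited table has it under Lysosome, where 28 genes were up and 22 down of 139 background genes (rich factor 1.43, the share of changed genes in the pathway over the share of background genes; authors' p = 0.0143, q = 0.0765). ABCA2 was thus listed as down in a pathway with more genes up than down. The peptide transporter ABCB9 was the only other gene listed under exactly the same pathways as ABCA2, ABC transporters and Lysosome, and was also down. The other 6 members were listed under ABC transporters alone, as were ABCB10, ABCC6, ABCG1 and ABCG4, which were all down. Likeness over samples could not be measured without levels.

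By sequence the proteins of the 4 cluster genes are closer to each other than to those of the other 3 members, with ABCA5 the least close of the 4. Translated from GENCODE transcripts, the proteins of ABCA6, ABCA8 and ABCA10 have 1617, 1621 and 1543 residues and are identical at 60.4% to 62.8% of aligned positions in pairs. ABCA5, with 1642 residues, matches them at 42.8% to 44.3%. ABCA2 (2466 residues), ABCA7 (2146) and ABCA12 (2595) are longer and match each other at 36.2% to 42.8%. Between these 3 and the 4 of the cluster, identity was 31.1% to 33.7%. ABCA9, the cluster gene that was not listed, is closest to ABCA8, at 72.2% identity. ABCA1, which was not listed, matches ABCA7 at 53.8%. Members inside and outside the cluster were listed as down, and close relatives of both were not listed.

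**Figure D2:**
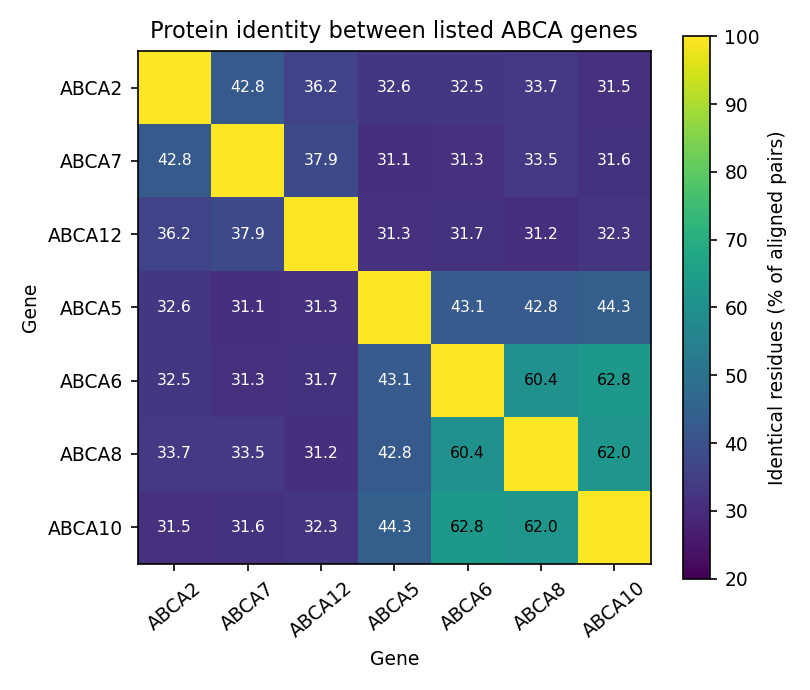
Protein identity, as the share of aligned residue pairs that are identical in a global alignment (%), for each pair of the 7 listed ABCA genes. ABCA6, ABCA8 and ABCA10 form the most alike group at 60.4% to 62.8%, and ABCA2, ABCA7 and ABCA12 are each below 34% with the 4 cluster genes.

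Base composition divides the members otherwise than protein sequence does, with ABCA12 on the side of the cluster genes. The longest transcripts of ABCA5 (33.1% GC), ABCA10 (36.9%), ABCA6 (38.6%), ABCA8 (41.0%) and ABCA12 (42.6%) lie below the median of 47.0% over the 2237 listed genes with a transcript sequence. Those of ABCA2 (63.7%) and ABCA7 (64.7%) lie far above it, higher than 95.0% and 96.5% of listed genes. Direction in the table moved with GC content over the listed genes. Of the 10% of listed genes with the lowest GC content, which hold ABCA5 and ABCA10, 96.9% were down. Of the 10% with the highest, which hold ABCA2 and ABCA7, 36.6% were down (82 of 224). The direction of 5 members is thus that of most listed genes of like composition, and that of ABCA2 and ABCA7 is the less common one. The part of base composition in these calls was not tested.

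**Figure D3:**
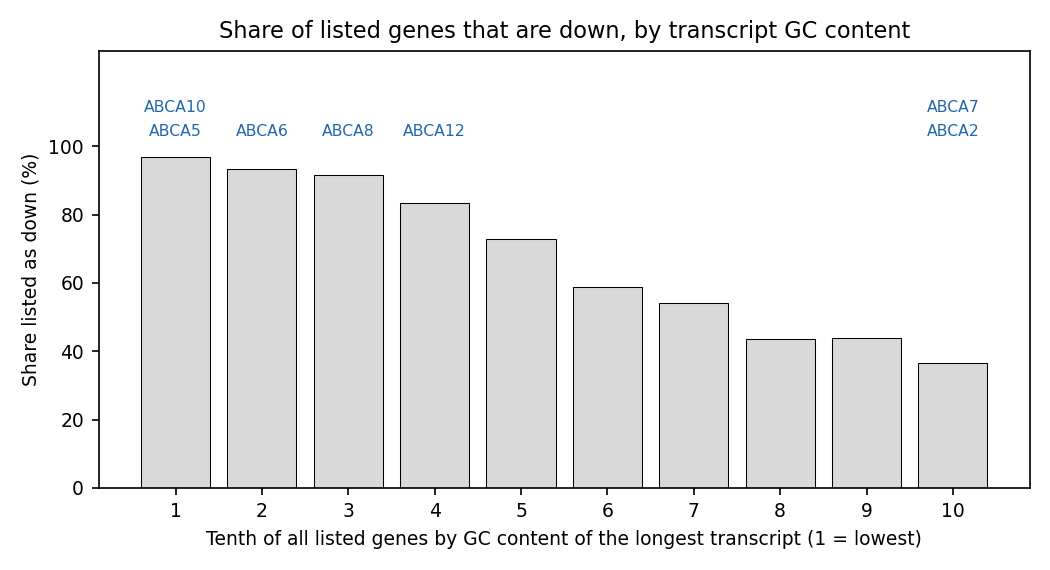
Share of all listed genes that are down (%, bars) in each 10% of genes by GC content of the longest transcript, from lowest to highest, with the listed ABCA genes named above the bars they belong to. The share drops from 96.9% to 36.6%, and ABCA2 and ABCA7 stand at the high end while the other 5 members stand in the lowest 4 bars.

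Gene size also differed among the members. ABCA12 spans 206887 bases and the cluster genes from 63187 (ABCA6) to 97633 (ABCA10), all above the median of 36616 over listed genes. ABCA2 (21696 bases) and ABCA7 (25472 bases) are below it, although their coding transcripts have 49 and 47 exons. Over all listed genes, 37.5% of the 10% with the shortest span and 88.4% of the 10% with the longest were down. In the 10% classes by span that hold ABCA2 and ABCA7, 63.8% and 64.3% were down. In those that hold the other 5 members, 79.5% to 88.4% were down. By span, down was thus the more common direction for listed genes like each of the 7 members. The part of gene size in these calls was not tested.

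The other ABC transporter genes in the table were down as well. In a list of 48 human ABC genes, 36 lie outside the ABCA family, and 11 of these were listed, all as down. That is 30.6% of the 36, beside 25.2% of all background genes listed as changed and 17.0% listed as down. The background genes are not named. Some of the 36 may lie outside them and could not have been listed, so these shares may not be over like sets. The ABCB family had 4 of 11 genes listed. They are the multidrug pump ABCB1, the bile canalicular phosphatidylcholine flippase ABCB4, the lysosomal ABCB9 and the mitochondrial ABCB10. The ABCC family had 4 of 12, the conjugate exporter of the bile canaliculus ABCC2, the nucleotide and bile acid exporter ABCC4, ABCC5, and ABCC6, a gene with pseudogene copies, for which sharing of reads was not measured here. The peroxisomal fatty acid transporter ABCD3 was 1 of 4 ABCD genes. The sterol exporters ABCG1 and ABCG4 were 2 of 5 ABCG genes. None of the 4 genes of the ABCE and ABCF families, which bind ribosomes and do not transport, was listed. Every listed ABC gene stands under ABC transporters, and whether these 4 belong to the background is not known. Their absence therefore says nothing about transport. ABCG5 and ABCG8, which pump sterols into bile and gut, were not listed.

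**Figure D4:**
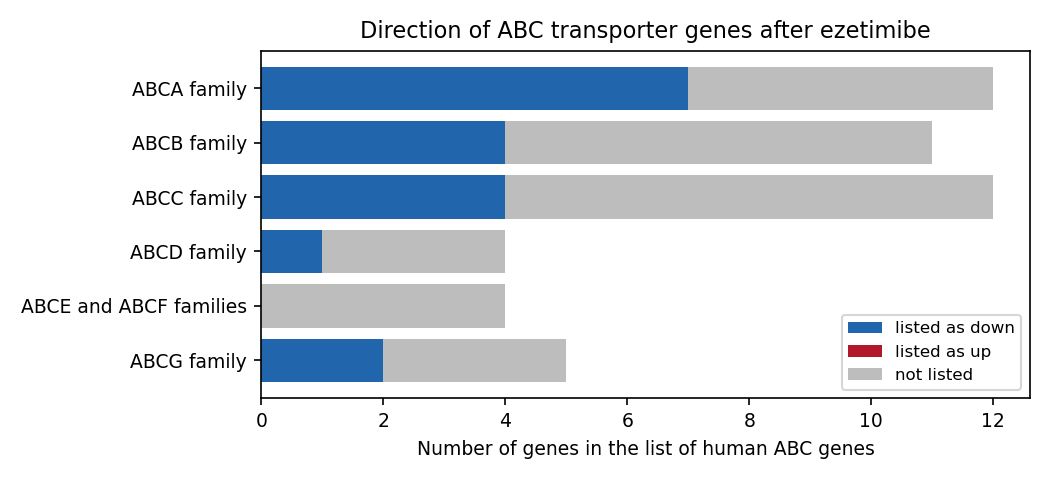
Number of human ABC genes in each subfamily that were listed as down, listed as up or not listed in the authors' table. The ABCA family has 7 of 12 genes listed, the ABCB family 4 of 11, the ABCC family 4 of 12, and no bar has a part listed as up.

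These 7 and 11 genes are the whole of the ABC transporters pathway in the authors' deposited table, which has 18 changed genes, 0 up and 18 down, of 63 background genes. At 28.6% changed, the pathway lay near the 25.2% of all background genes, and the authors' deposited table gives it a rich factor of 1.13, p = 0.498 and q = 0.911. The authors' test did not call the pathway enriched, and its changed genes have a single direction. Of the 327 pathways, 24 had no gene listed as up, 5 of them with 10 or more changed genes, and ABC transporters had the most changed genes of these 24. Of the 18 genes, 11 belong to the lower 5 of the 10 GC classes, where 87.6% of listed genes were down, and 7 to the upper 5, where 47.3% were. The latter 7 are ABCA2, ABCA7, ABCB9, ABCC5, ABCC6, ABCG1 and ABCG4. The 63 background genes are more than the 48 of the list used here, and their names are not given.

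Genes in lists on lipid handling and amyloid precursor processing, called partner genes here, differed in direction between the lists. Whether they work with the 7 listed ABCA genes was not examined. Their shares listed as changed stand beside 25.2% over all background genes, and their shares down beside 67.5% of all listed genes. Here and in the next paragraph the shares listed as changed are over fixed lists. Their genes may lie partly outside the background and could then not have been listed, so the shares may not be over like sets. Of 14 genes of the LXR axis, which controls ABCA1 and ABCG1, 4 were listed (28.6%), and 75.0% of these were down. The receptor NR1H2 (LXR beta) was up, and its partner RXRA, the ubiquitin ligase MYLIP and ABCG1 were down. Of 29 genes of lipoproteins and their receptors, 5 were listed (17.2%). Endothelial lipase LIPG was up, and hepatic lipase LIPC, the high-density lipoprotein receptor SCARB1, the sorting receptor SORT1 and APOH were down.

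Of 42 genes of sphingolipid metabolism, whose products ABCA2 and ABCA12 handle, 14 were listed (33.3%), 8 up and 6 down (42.9% down). Those up included the sphingosine kinase SPHK1, the ceramide synthases CERS4 and CERS5, the sulfatide-making GAL3ST1 and the sialidase NEU1. Those down included the ceramide synthase CERS6, the ceramidase ACER2 and the lysosomal galactosylceramidase GALC. Of 16 genes of the epidermal lipid barrier, where ABCA12 acts, SLC27A4 was up and SULT2B1 down, and 14 were not listed (12.5% listed). Of 15 genes of amyloid precursor processing, with which ABCA7 and ABCA2 have been linked, the gamma-secretase subunits NCSTN and APH1A were up and the alpha-secretase ADAM10 was down, and 12 were not listed. Pooled without ABC genes, 14 of 27 listed partner genes were down (51.9%), beside 67.5% over all listed genes. Of the 13 that were up, 8 come from the sphingolipid list.

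The identity of the cells cannot be checked from the lists, which hold only genes called changed and no levels. Calls of cell type markers are given as a description. Of 39 markers of 6 cell types 14 were listed (35.9%, beside 25.2% of all background genes), and 12 of the 14 were down (85.7%, beside 67.5% of all listed genes). Markers outside the background could not have been listed, and the background genes are not named. The shares of 35.9% and 25.2% may therefore not be over like sets. Of 12 hepatocyte markers 5 were listed, all down (AFP, FGA, FGB, FGG and CPS1). Of 7 keratinocyte markers, the cells in which ABCA12 is best known, KRT10 alone was listed, as up. Of 6 fibroblast or stellate cell markers 4 were down (COL1A1, COL1A2, ACTA2 and LRAT), of 5 cholangiocyte markers 2 were down (SOX9 and SPP1), of 4 endothelial markers none was listed, and of 5 immune markers CD68 was up and CD14 down. The part of these markers in the members' calls was not tested. The cultures are of a single line, so these markers do not measure shares of cell types. In RNA from a whole culture, fewer cells expressing a gene and less RNA per cell cannot be told apart.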

How the data were processed

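Total RNA from 1 control and 1 ezetimibe culture of SNU-449 cells was sequenced. The submitters' processing notes name HISAT2 2.0.4 and StringTie 1.3.0. No build, annotation, read depth or threshold is named there or in the file headers. The deposited table, named for edgeR and KEGG enrichment, gives per the file headers the numbers and names of changed genes in 327 pathways. Its rich factor, a ratio, and its p-values and q-values are the authors', per the file headers, and are printed as theirs. No value per library was analysed.

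Symbols, directions and pathways were read from the authors' gene lists. List genes were matched by symbol or Ensembl ID. Members and lists were chosen with earlier results of these data known. Some genes of the lists are not reported here. Named are all listed ABC genes, all listed genes of a list with 8 or fewer and otherwise the 8 under the most pathways, and listed neighbours within 1000 kb. The solute carriers named under other observations are examples, picked by no such rule after their directions were seen. No test was made: there is 1 library per group.

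Gene models, GC content, shared 50-base words and translated proteins came from GENCODE release 29 (GRCh38), promoters from RefSeq (GRCh38.p14), matched by symbol for 6 of 7 members. Proteins were aligned globally with BLOSUM62, gap opening 11 and extension 1. Alignment and parsing were tested on simulated data. Alternatives were another matching, pathway set, window, transcript, alignment and promoter stretch. Biopython 1.88, pandas 2.3.3, SciPy 1.17.1, NumPy 2.4.6 and Matplotlib 3.10.9 were run under Python 3.11.15.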

Additional observations from a re-analysis of the deposited data

How the results depend on the processing

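Over 15 alternatives to 8 results, 13 left the value within its counting interval, within 1.5 times the count, or within the spread between members. Several of the 13 had little room to differ. Matching by Ensembl ID, by ABC symbols alone and by the ABC transporters pathway alone re-read the same gene lists. Counting intervals are wide for the small counts of neighbours and partner genes. The 13 are therefore no measure of how firm the results are. Both exceptions came from reading only pathways with an authors' p below 0.05, which leaves out ABC transporters itself. Of the 7 ABCA genes 1 is then still seen, ABCA2 through Lysosome, and of the 11 other ABC genes 3 are, ABCB1, ABCB9 and ABCC2, all down. The share of all listed genes that were down was 67.5%, and between 67.6% and 69.3% under its alternatives. That of the neighbours was 66.7% within 500 kb and 55.0% within 2000 kb. The median GC content of the members was 41.0% for the longest transcripts, 42.3% as a mean over all transcripts and 42.6% for the longest coding transcript. The last of these, and the limit on pathways for the ABC genes outside ABCA and for the partner genes, were chosen after seeing the data. No paired analysis was possible because each group has 1 library, and for the same reason no replicate could be left out. Depth per library is unknown, so a gene that was not listed cannot be called unchanged.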

Other observations

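Other membrane transporter families in the table, grouped by symbol after their directions were seen, differed in their directions. Of 32 listed solute carriers (SLC), 12 were up and 20 down (62.5% down, beside 67.5% of all listed genes). Among those up were SLC2A1, a glucose transporter, SLC7A1, a cationic amino acid transporter, and SLC36A1, a lysosomal amino acid transporter. Among those down were SLC2A2, the hepatocyte glucose transporter, SLC40A1, the iron exporter, and SLC27A2, a fatty acid transporter. The 4 listed organic anion carriers, SLCO1A2, SLCO1B1, SLCO1B3 and SLCO1B7, were all down. Of 11 listed genes of the vacuolar proton pump, another ATP-driven transporter, 9 were up, and ATP6V0E2 and ATP6V1E2 were down. The 3 listed P-type ion pump genes, also ATP-driven (ATP1B1, ATP1B2 and ATP2B4), and the 2 listed aquaporins, AQP4 and AQP5, were all down.

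Of the pathways in which ABC genes export bile, the authors' deposited table has Bile secretion with 5 genes up and 19 down of 77 background genes (p = 0.255). It holds ABCB1, ABCB4, ABCC2 and ABCC4 and none of the listed ABCA genes.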
